A study of Mus musculus with 6 samples.

Results

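The genes described here are a pair of cathepsin inhibitors and 7 lysosomal cathepsins, measured in blood-forming cells of the mouse. The 9 genes were taken by name, from 18193 genes measured: the inhibitor genes Ctla2a and Ctla2b and the cathepsin genes Ctsa, Ctsb, Ctsc, Ctsd, Ctsh, Ctsl and Ctsz. They were chosen by their intensities in the LSK and LK arrays, so their levels and differences are a description and carry no test. Among 20 probe sets that carry exactly 1 of the 9 symbols, the brightest on average in log2 intensity stands for its gene, and 1 more probe set carries both Ctla2 symbols.

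Both groups were sorted by flow cytometry from wild-type C57BL/6 mice, carried the receptor Kit and had low lineage staining. LSK cells (3 arrays), which also carry the surface protein Sca-1, hold the stem cells and multipotent progenitors. LK cells (3 arrays), which lack Sca-1, hold the committed progenitors. Both are mixtures of cell types, and the labels give no age and do not say whether the arrays come from separate animals or from pools.

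Cathepsins are proteases that break down proteins in the lysosome, an acid compartment that receives material from outside and inside the cell. Most are cysteine proteases of the papain family, made as precursors whose propeptide blocks the active site until it is cut away. The Ctla2 proteins resemble such a propeptide without a protease attached, inhibit cathepsin L-like enzymes, and were first found in activated T cells and mast cells of the mouse.

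Ctla2a and Ctla2b lie on chromosome 13 with 1 protein-coding gene between them in the RefSeq table of GRCm38.p6. The placental cathepsin gene Ctsj follows Ctla2a with 1 coding gene between, and 8 of 8 listed placental cathepsins lie between Ctla2a and Ctsl, which is on the same chromosome. RefSeq promoter entries matched 7 of the 9 genes (all except Ctsb and Ctsh). Because Ctla2a and Ctla2b had similar differences between the populations, the 250 bases before the more upstream start of Ctla2a (chr13:60936626-60936875, minus strand) and before the start of Ctla2b (chr13:60897448-60897697, minus strand) are shown 5′ to 3′. Those before Ctsd (chr7:142387828-142388077, minus strand) are shown beside them as an example from a cathepsin gene with CACGTG. Capitals mark TGACTCA, the letters that AP-1 factors bind, and CACGTG, the core of the element through which TFEB and its relatives act on lysosome genes.
Ctla2a: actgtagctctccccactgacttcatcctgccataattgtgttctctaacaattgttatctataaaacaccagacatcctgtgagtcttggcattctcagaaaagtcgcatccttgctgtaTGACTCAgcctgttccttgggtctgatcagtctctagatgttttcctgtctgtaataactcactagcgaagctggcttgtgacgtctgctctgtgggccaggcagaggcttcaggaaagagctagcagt
Ctla2b: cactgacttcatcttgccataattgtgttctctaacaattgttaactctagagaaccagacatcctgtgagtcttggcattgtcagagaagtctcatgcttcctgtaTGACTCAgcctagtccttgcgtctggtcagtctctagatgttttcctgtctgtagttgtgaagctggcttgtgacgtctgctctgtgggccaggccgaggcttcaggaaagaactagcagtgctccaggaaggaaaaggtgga
Ctsd: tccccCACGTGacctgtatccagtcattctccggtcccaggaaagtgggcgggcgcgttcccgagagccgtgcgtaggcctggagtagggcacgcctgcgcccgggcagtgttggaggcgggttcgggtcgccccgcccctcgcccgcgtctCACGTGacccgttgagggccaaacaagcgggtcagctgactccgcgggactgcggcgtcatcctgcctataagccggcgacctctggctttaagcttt
The Ctla2 stretches were identical at 208 of 228 aligned bases (91.2%), with 8 bases of gaps between aligned bases. TGACTCA, searched on both strands, occurred once in each, starting 129 bases before the start of Ctla2a and 143 before that of Ctla2b, and 4.46% of 32851 RefSeq stretches of the same length hold it. Neither Ctla2 stretch held CACGTG, which 6.02% of the stretches hold. It occurred 2 times before Ctsd, starting at 245 and 98 bases before the start, 1 time before Ctsl and 1 time before the more downstream start of Ctsa, and did not occur before Ctsc or Ctsz. The motifs were chosen after the sequences were read.

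The arrays had median log2 intensities from 2.98 to 3.09, and genes near that level are close to the low end of the range. Replicate 2 stood apart, with an upper quartile of intensity of 22.0 in LSK and 20.7 in LK, where the remaining arrays had 24.2 to 25.7. The log2 difference between 3′ and 5′ control probe sets, which is higher where RNA is more degraded or less evenly amplified, averaged 2.64 ± 0.565 on the LSK arrays and 3.53 ± 0.358 on the LK arrays (SD, n = 3 each). It was 3.30 on LSK replicate 3, within the LK values of 3.26 to 3.94, and 2.32 on LSK replicates 1 and 2. With this difference as a covariate, 25 of all genes were called higher and 0 lower, which left 3 stem cell genes called and none of the other listed genes or members. Since the covariate itself differed between the populations, its part and that of the population are hard to separate on 6 arrays. Without both replicate 2 arrays, 371 of all genes were higher and 166 lower, and the calls in the lysosome lists given below were lost except those of other cathepsins toward LSK. The lists of stem cell and committed progenitor genes were chosen with earlier results of these data known. Their counts describe the sorts and do not test them. Beside 3.84% of all genes called higher and 2.89% lower, 7 of 7 measured genes of stem cells and multipotent progenitors were higher in LSK. Among them were the transcription factor genes Mecom (log2 difference 4.87, limma adjusted p = 0.000685, and 1.70 with the mean of its probe sets) and Hlf (4.14, adjusted p = 0.000629). Of 8 measured genes of committed progenitors 6 were lower, among them the erythroid genes Ermap (-6.35, adjusted p = 0.00133) and Car1 (-6.06, adjusted p = 0.00627). Sca-1 itself is not analysed here.

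The inhibitor genes had far higher levels in LSK than in LK cells, while the cathepsin genes moved less and in both directions. Of the 9 members 3 were past the limma threshold toward LSK (Ctla2a, Ctla2b and Ctsl) and 0 toward LK, where 1 had an unadjusted p under 0.05. Over all genes 6.73% were called, of which 3.84% of all were higher and 2.89% lower, and since the members were chosen with this comparison known, nothing is read from their count. The median log2 difference was 0.19 over the 9 members, -0.41 over the 7 cathepsins and -0.02 over all genes. With the replicate number as a block Ctsb was also called, so that 1 member was lower, beside 7.02% of all genes higher and 7.36% lower. In sorted mixtures, fewer cells of a type and less RNA per cell cannot be told apart.

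**Figure D1:**
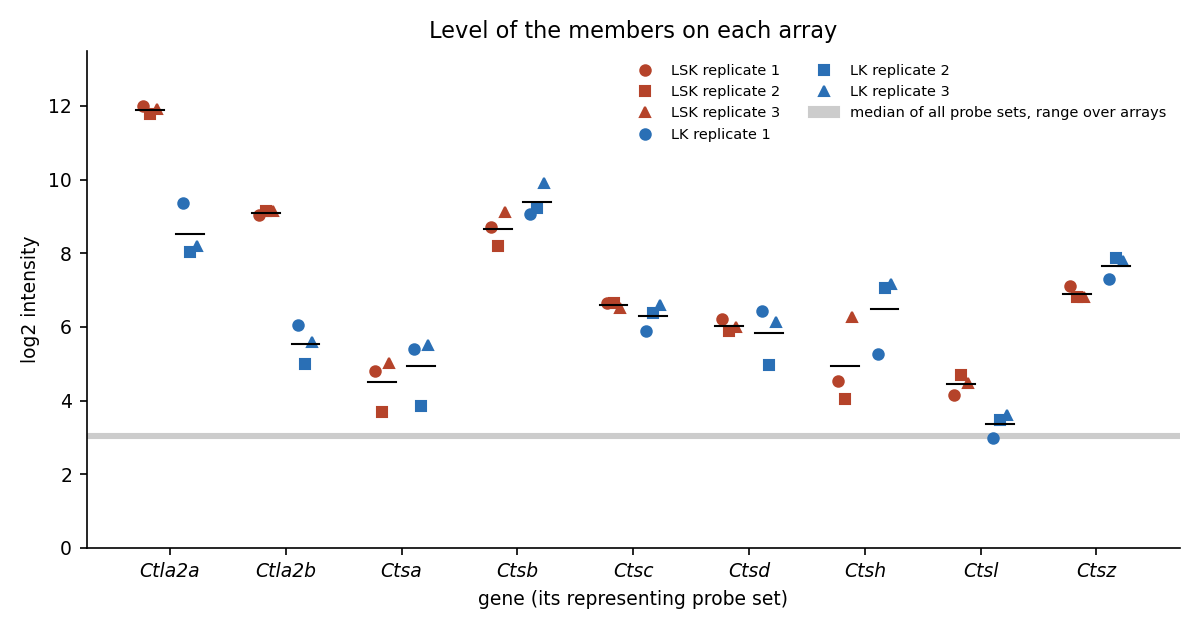
Log2 intensity (vertical axis) of the probe set that represents each of the 9 genes, on each of the 6 arrays; LSK is red, LK is blue, marker shapes stand for replicates 1 to 3, black lines for means over 3 arrays and the grey band for the range of array medians over all probe sets. Ctla2a and Ctla2b separate the populations by more than 2.5 on this scale on each array pair, while Ctsl lies near the grey band in LK.

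Ctla2a had log2 intensities of 12.01, 11.77 and 11.93 on the LSK arrays and 9.37, 8.03 and 8.20 on the LK arrays. The LSK arrays lay close together, the LK arrays were all lower and well above the array median, and LK replicate 1 stood above the other LK arrays. The means were 11.90 ± 0.12 (SD, n = 3) and 8.54 ± 0.73 (SD, n = 3), a log2 difference of 3.37 (SE 0.35) or 10.3-fold. Leaving out LK replicate 1 gave 3.79, and the covariate 3.00.

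Ctla2b, its near copy, had log2 intensities of 9.03, 9.14 and 9.15 on the LSK arrays and 6.055, 4.995 and 5.597 on the LK arrays. Again the populations did not overlap, the LSK arrays were nearly equal, and LK replicate 1 was the highest of the LK arrays. The means were 9.10 ± 0.07 (SD, n = 3) and 5.55 ± 0.53 (SD, n = 3), a log2 difference of 3.56 (SE 0.26) or 11.8-fold, and of 3.23 with the covariate. The probe set that carries both symbols had values of 10.97, 10.89 and 10.79 in LSK and 8.05, 5.78 and 6.82 in LK, a log2 difference of 4.001 (SE 0.52). It showed the same order of the LK arrays as both Ctla2a and Ctla2b. The genes are so alike that their probe sets may detect both transcripts, so the signals cannot be assigned to 1 gene each.

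The stem cell and multipotent genes named above had a mean log2 level over the list of 6.06 on LK replicate 1 against 5.54 and 5.33 on the other LK arrays, and from 8.78 to 9.12 on the LSK arrays. On LK replicate 1 the list of committed progenitor genes was also at its highest, 9.45 against 8.57 and 8.50 on the other LK arrays. The part of either kind of cell in the Ctla2 levels was not tested. T-cell and NK-cell genes were near the low end: 7 of 7 measured averaged below 4 on the log2 scale in LSK and in LK, 0 were called and 0 had an unadjusted limma p under 0.05, the mean over the list was 2.67 to 2.95 in LSK and 2.69 to 2.73 in LK, and Cd3d, a subunit of the T-cell receptor complex, was at 2.92 ± 0.05 (SD, n = 3) and 2.67 ± 0.07 (SD, n = 3; adjusted p = 0.287). Among 7 mast cell genes 2 were called, both lower in LSK: the histidine decarboxylase gene Hdc (log2 difference -3.56, SE 0.49, adjusted p = 0.0122) and Ms4a2, a subunit of the high-affinity IgE receptor (-1.83, SE 0.34, adjusted p = 0.0288), with list means of 2.91 to 3.73 in LSK and 4.35 to 4.68 in LK. Hdc lost its call without replicate 1 of LSK or replicate 3 of LK (adjusted p up to 0.0586), and Ms4a2 without replicate 1 or 2 of LSK or replicate 1 or 3 of LK (up to 0.101). With the mean of probe sets they were called at -2.24 and -1.02. Among 8 endothelial genes, a tissue where Ctla2a is also known, 6 had means under 4 in LSK and in LK and 1 was called, Emcn, which encodes endomucin (4.03 ± 0.42 in LSK and 2.26 ± 0.24 in LK, SD, n = 3, adjusted p = 0.0119, and 0.0586 without LK replicate 3). Vwf, the other gene not under 4 in both populations, went the opposite way and was not called. It had 3.29 ± 0.37 in LSK and 4.11 ± 0.51 in LK (SD, n = 3, difference -0.83, limma adjusted p = 0.165). Of the 8 endothelial genes 5 had a difference below 0. The list means were 3.00 to 3.20 in LSK and 2.92 to 3.10 in LK, and Cdh5, which encodes VE-cadherin, lay between 2.64 and 2.93 on the 6 arrays.

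Of the 7 cathepsin members, Ctsl had the largest difference toward LSK. It encodes cathepsin L, the kind of enzyme that Ctla2 proteins inhibit. Its log2 intensities were 4.16, 4.71 and 4.49 on the LSK arrays and 2.99, 3.47 and 3.61 on the LK arrays. The populations did not overlap, but the LK values lay near the array median. The log2 difference was 1.09 (SE 0.22) or 2.13-fold, from means of 4.45 ± 0.28 and 3.36 ± 0.33 (SD, n = 3). The other Ctsl probe set had values of 3.77, 2.93 and 3.99 in LSK and 3.45, 2.91 and 3.63 in LK, so that its populations overlapped and its difference was 0.24 (SE 0.32). Ctsl was no longer past the threshold when any 1 of the 6 arrays was left out, without both replicate 2 arrays, or with the mean of its probe sets, where the difference was 0.66.

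Ctsz, which encodes cathepsin X, a carboxypeptidase, had log2 intensities of 7.11, 6.80 and 6.80 in LSK and 7.30, 7.86 and 7.80 in LK. The populations did not overlap, with LSK lower, although replicate 1 of each lay close to the other. The log2 difference was -0.75 (SE 0.19), from means of 6.90 ± 0.18 and 7.65 ± 0.31 (SD, n = 3). Its other probe sets differed by -1.11 (SE 0.29) and -0.63 (SE 0.33). Without LK replicate 1 the difference was -0.93, past the threshold. Over all genes 14.8% had LSK arrays that all lay below the LK arrays, and 13.2% the reverse.

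Ctsb encodes cathepsin B, an abundant lysosomal cysteine protease. Its log2 intensities were 8.71, 8.18 and 9.12 in LSK and 9.07, 9.22 and 9.92 in LK. The populations overlapped at LSK replicate 3 and LK replicate 1, but within each number the LSK array was the lower. The log2 difference was -0.73 (SE 0.31), with differences of -0.36, -1.04 and -0.80 in the pairs of replicates 1, 2 and 3. All 4 other Ctsb probe sets averaged below 4 on the log2 scale in LSK and in LK, and 1 of them had a difference in the same direction as the representing one. With the mean of its probe sets the difference was -0.14.

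Ctsh, which encodes the aminopeptidase cathepsin H, had the largest difference toward LK of the 9 genes and the widest spread. Its log2 intensities were 4.52, 4.05 and 6.27 in LSK and 5.26, 7.06 and 7.18 in LK. LSK replicate 3 lay within the LK range, and LK replicate 1 lay below the other LK arrays. The log2 difference was -1.55 (SE 0.72), from means of 4.95 ± 1.17 and 6.50 ± 1.08 (SD, n = 3). The representing probe set has a suffix that marks possible cross-hybridisation, and the other probe set gave 4.2, 4.39 and 4.96 in LSK and 4.21, 4.58 and 5.64 in LK, a difference of -0.29 (SE 0.39). With the difference between 3′ and 5′ probe sets as a covariate the difference of the representing probe set was 0.22. It was -2.22 without LSK replicate 3 and -0.82 without both replicate 2 arrays.

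Ctsc encodes cathepsin C, which activates the serine proteases of granules. Its log2 intensities were 6.65, 6.64 and 6.50 in LSK and 5.90, 6.39 and 6.59 in LK. The populations overlapped at LSK replicate 3 and LK replicate 3, and the difference of 0.30 (SE 0.20) was of the size of the LK spread (means 6.60 ± 0.08 and 6.29 ± 0.36, SD, n = 3). Without LK replicate 1 it was 0.11. The other Ctsc probe sets differed by 0.66 (SE 0.40) and by -0.03 (SE 0.13).

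The remaining members are not cysteine proteases: Ctsd encodes the aspartic protease cathepsin D, and Ctsa a serine carboxypeptidase that also protects the sialidase Neu1 and the galactosidase Glb1 in a complex. Ctsd had log2 intensities of 6.22, 5.90 and 5.99 in LSK and 6.42, 4.95 and 6.14 in LK, with LK replicate 2 far below all others. Its log2 difference of 0.19 (SE 0.37) changed sign to -0.25 without LK replicate 2 and to -0.41 with the covariate. Ctsa had log2 intensities of 4.81, 3.70 and 5.03 in LSK and 5.40, 3.86 and 5.52 in LK. Here both replicate 2 arrays were low and the populations overlapped. The log2 difference was -0.41 (SE 0.53), and within the pairs of replicates 1, 2 and 3 it was -0.59, -0.16 and -0.49. Without LSK replicate 2 it was -0.01, and without LK replicate 2 it was -0.95.

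**Figure D2:**
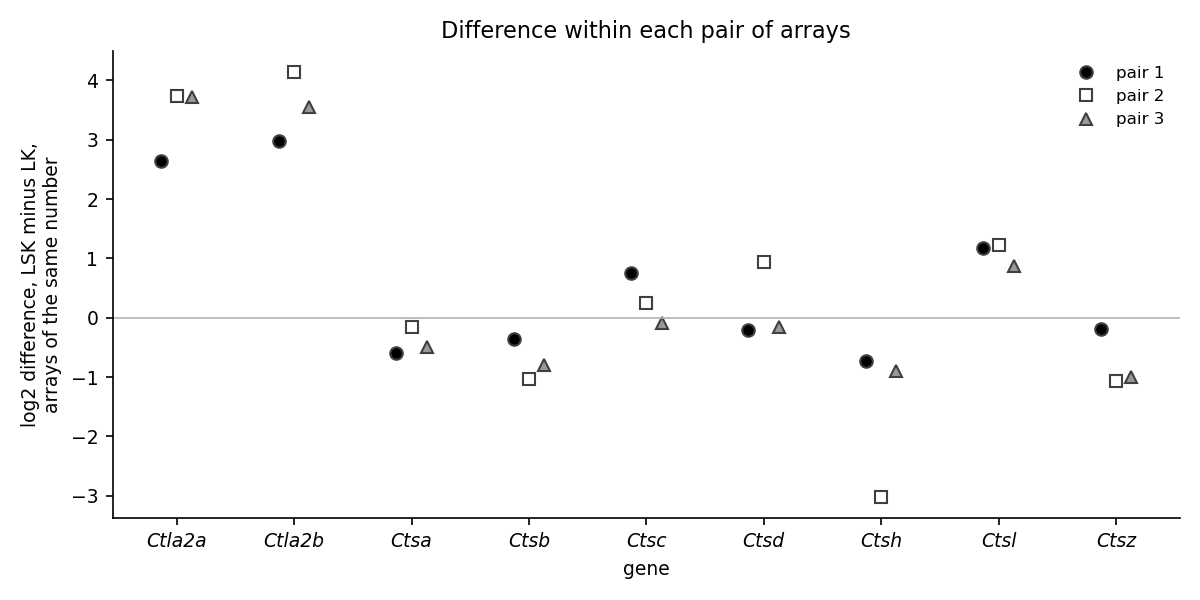
Log2 difference, LSK minus LK, between the arrays of the same replicate number (vertical axis) for each of the 9 genes; marker shapes stand for pairs 1 to 3. All 3 pairs lie above 0 for Ctla2a, Ctla2b and Ctsl and below 0 for Ctsa, Ctsb, Ctsh and Ctsz, while the pairs of Ctsc and Ctsd lie on both sides. No share over all genes is given beside this, so nothing is read from the agreement of pairs.

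Fitted over all 45037 probe sets, of which 3.21% were called and 2.03% called higher in LSK, the 3 probe sets of the Ctla2 genes were called and 0 of the 18 probe sets of the cathepsins, with 3 of the 18 at an unadjusted limma p under 0.05. Of these 18 probe sets 8 had a difference above 0 and 10 below 0, and 7 averaged below 4 on the log2 scale in LSK and in LK. Only for Ctsz, among the genes with more than 2 probe sets, did each probe set differ in the same direction. All Ctsz probe sets carry a suffix (s, a or x), so no unsuffixed one could check this.

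**Figure D3:**
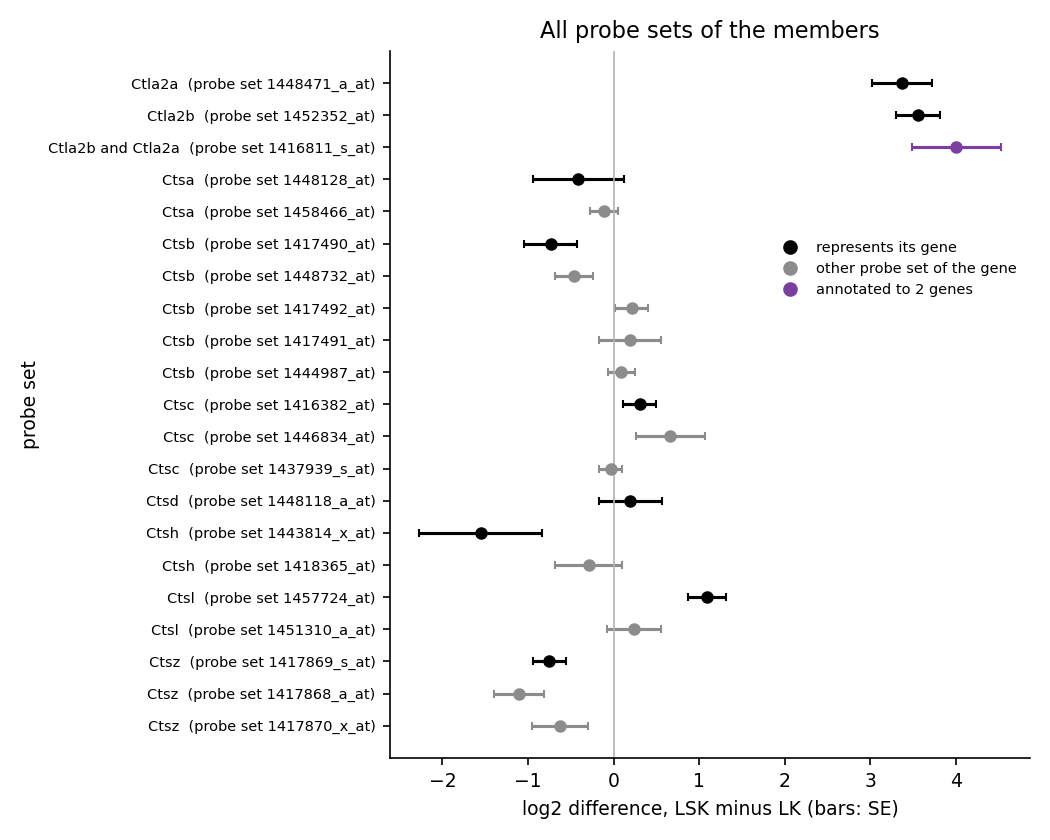
Log2 difference, LSK minus LK (horizontal axis), of each of the 21 probe sets of the 9 genes, with bars for the SE from limma over all probe sets; black points represent their gene, grey points are its other probe sets and the purple point is annotated to both Ctla2 genes. The 3 Ctla2 probe sets lie between 3.37 and 4.001, and the cathepsin probe sets between -1.55 and 1.09.

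The 7 other cathepsins of blood and general tissues also differed in both directions. Of them 2 were higher in LSK, 1 was lower and 4 were not called (median log2 difference 0.34), beside 3.84% of all genes called higher and 2.89% lower. Ctso, which encodes cathepsin O, had log2 levels of 5.80 ± 0.53 in LSK and 4.32 ± 0.12 in LK (SD, n = 3; difference 1.48, SE 0.27, limma adjusted p = 0.0269). Ctsw, a cathepsin of cytotoxic lymphocytes, was near the low end at 3.49 ± 0.40 and 2.34 ± 0.24 (SD, n = 3; difference 1.15, SE 0.24, adjusted p = 0.0392). Ctsg, the serine protease cathepsin G of neutrophil granules, was lower in LSK at 10.45 ± 0.72 against 12.41 ± 0.49 (SD, n = 3; difference -1.97, SE 0.41, adjusted p = 0.0388). Blocking on replicate gave 3 higher and 2 lower, the added genes being Ctss (0.78, block adjusted p = 0.0377), which encodes cathepsin S of antigen-presenting cells, and Ctse (-2.004, block adjusted p = 0.0434), which encodes an aspartic protease. Ctso lost its call without LSK replicate 1 or any LK array (adjusted p up to 0.103), Ctsw when any array but LSK replicate 2 was left out (up to 0.131), and Ctsg when any but LSK replicate 3 was (up to 0.132). The 8 placental cathepsins, which lie beside the Ctla2 genes, were all under a log2 of 4 in both populations, with no array above 3.36, and 0 were called and 0 had an unadjusted limma p under 0.05. The lowest p among them belonged to Ctsr (2.85 ± 0.18 and 3.15 ± 0.19, SD, n = 3, adjusted p = 0.342).

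Of the other inhibitors of cysteine cathepsins, the cystatins and stefins, 7 of 13 were measured. Among these 7, 0 were called higher (1 at an unadjusted limma p under 0.05) and 1 lower (median log2 difference 0.12). This stands beside 3.84% of all genes called higher and 2.89% lower, and nothing is read from the count. The called gene was Cst7, which encodes cystatin F, an inhibitor of cathepsin C and L in immune cells. It had log2 levels of 6.38, 6.30 and 6.87 in LSK and 7.64, 8.20 and 8.83 in LK, so that all LSK arrays lay below all LK arrays (difference -1.70, SE 0.32, adjusted p = 0.0299). It lost its call without replicate 1 or 2 of LSK or replicate 2 or 3 of LK (adjusted p up to 0.106). The widely expressed inhibitors Cst3 and Cstb had differences of 0.70 (SE 0.22, adjusted p = 0.113) and -0.15 (SE 0.15, adjusted p = 0.641).

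Among 6 measured granule serine proteases that cathepsin C activates, 3 fell in LSK and 0 rose (median log2 difference -1.05). This stands beside 2.89% of all genes called lower and 3.84% higher. The proteases that fell were Elane, neutrophil elastase (8.42 ± 0.95 in LSK and 11.22 ± 0.89 in LK, SD, n = 3, difference -2.81, adjusted p = 0.041), Ctsg, given above, and Prtn3, proteinase 3 (difference -1.90, SE 0.42, adjusted p = 0.0468). The list mean was 6.39 on LSK replicate 3 and 5.70 and 5.95 on the other LSK arrays, so that the array on which Ctsh was high was also the LSK array on which these genes were highest. LSK replicate 3 was also the LSK array with the highest log2 difference between 3′ and 5′ control probe sets, 3.30 against 2.32 on LSK replicates 1 and 2. The part of the granule protease genes in the level of Ctsh was not tested. Among 12 macrophage genes 10 averaged below 4 on the log2 scale in LSK and in LK, with list means of 3.47 to 3.96 in LSK and 3.70 to 4.02 in LK. Of these 12, 1 was called higher, C1qb (3.84 ± 0.21 and 2.34 ± 0.31, SD, n = 3, adjusted p = 0.0108, up to 0.0571 without replicate 1 of LSK or replicate 3 of LK). Its probe set is marked for possible cross-hybridisation, and the difference of 1.503 was 0.77 with the mean of its probe sets and 0.05 without suffixed probe sets (limma adjusted p = 0.896). Blocking on replicate also gave 1 lower, Csf1r (difference -2.19, block adjusted p = 0.0215), the receptor for macrophage colony-stimulating factor. Elane lost its call without replicate 1 or 2 of LSK or replicate 2 or 3 of LK (up to 0.13), and Prtn3 when any array but LK replicate 1 was left out (up to 0.148) and without suffixed probe sets (0.0529).

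Among 30 measured lysosomal and related hydrolases 1 was higher in LSK, 1 lower and 28 not called, with 21 below 0 and a median log2 difference of -0.22. This stands beside 6.73% of all genes called, 3.84% higher and 2.89% lower, and nothing is read from the count. The higher gene was Ids, which encodes a sulfatase that degrades heparan and dermatan sulfate (8.54 ± 0.07 and 7.64 ± 0.14, SD, n = 3, difference 0.91, SE 0.13, adjusted p = 0.0142), and the lower Gusb, beta-glucuronidase (7.28 ± 0.36 and 8.32 ± 0.23, SD, n = 3, difference -1.04, SE 0.22, adjusted p = 0.0432). With the mean of probe sets Ids differed by 0.11 (limma adjusted p = 0.594) and Gusb by -0.68 (0.147). Blocking on replicate gave 4 lower, Gusb, Arsb (-1.65, block adjusted p = 0.0281), Gla (-1.58, 0.00645) and Glb1 (-0.72, 0.0384). Neu1 and Glb1, the partners of the Ctsa product, had differences of -0.23 (adjusted p = 0.448) and -0.72 (adjusted p = 0.128) in the fit without the block. Ids lost its call without replicate 1 of LSK or replicate 3 of LK (adjusted p up to 0.0692), and Gusb without any 1 of the 6 arrays (from 0.0512 to 0.147).

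Of 14 measured genes of the proton pump that acidifies the lysosome, 3 fell in LSK, 0 rose and 11 were not called. Of the 14, 12 lay below 0 (median log2 difference -0.66). Over all genes 2.89% were called lower and 3.84% higher. With the mean of probe sets 1 pump gene was called lower. Atp6ap2, an accessory subunit, had log2 levels of 10.68, 10.51 and 11.39 in LSK and 11.93, 12.22 and 12.27 in LK, without overlap (difference -1.27, SE 0.25, adjusted p = 0.0345). The others were the subunit genes Atp6v1b2 (-0.98, SE 0.18, adjusted p = 0.0295) and Atp6v1c1 (-0.82, SE 0.17, adjusted p = 0.0376). Blocking on replicate gave 5 lower, Atp6v1e1 and Atp6v1a being added (block adjusted p = 0.0165 and 0.0286). Atp6ap2 and Atp6v1b2 lost their calls when any array but LSK replicate 3 was left out (adjusted p up to 0.125 and 0.0899), and Atp6v1c1 in each of the 6 (up to 0.134). Atp6v1b2 differed by -0.41 with the mean of its probe sets (limma adjusted p = 0.0873) and was not called with trend and robust variances (0.0719). Atp6v1c1 was not called with the mean of its probe sets (0.124) or without suffixed ones, where it differed by -1.25 (0.159).

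The counts of the next 3 lists stand beside 3.84% of all genes called higher and 2.89% lower. Of 9 genes for delivery of hydrolases to the lysosome and their processing, 0 were higher and 1 was lower (median 0.13): M6pr, the cation-dependent mannose 6-phosphate receptor that carries cathepsin precursors from the Golgi. Its log2 levels were 8.04, 8.06 and 8.18 in LSK and 8.79, 8.82 and 8.84 in LK, a small difference with little spread (-0.73, SE 0.12, adjusted p = 0.0191). Of 12 measured lysosomal membrane genes 1 was higher, Laptm4b (9.31 ± 0.37 and 7.81 ± 0.51, SD, n = 3, difference 1.501, SE 0.30, adjusted p = 0.0364), and 0 were lower (median -0.04). Of 6 transcription factors of lysosome genes and their regulators 1 was higher, Flcn, which encodes folliculin (difference 0.63, SE 0.14, adjusted p = 0.0439), and the factor genes Tfeb, Tfe3 and Mitf were not called (0.11, -0.10 and -0.05). M6pr lost its call without replicate 1 or 2 of LSK or replicate 1 or 3 of LK (adjusted p up to 0.0885), Laptm4b without replicate 1 or 3 of LSK or replicate 1 or 2 of LK (up to 0.123), and Flcn without any 1 array (from 0.0576 to 0.144). The probe set of Flcn has a suffix for possible cross-hybridisation, and its difference was 0.31 with the mean of its probe sets (limma adjusted p = 0.167), 0.17 without suffixed probe sets (0.737) and not past the threshold without dim genes (0.0555). M6pr was also not called with the mean of its probe sets (0.0573).

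**Figure D4:**
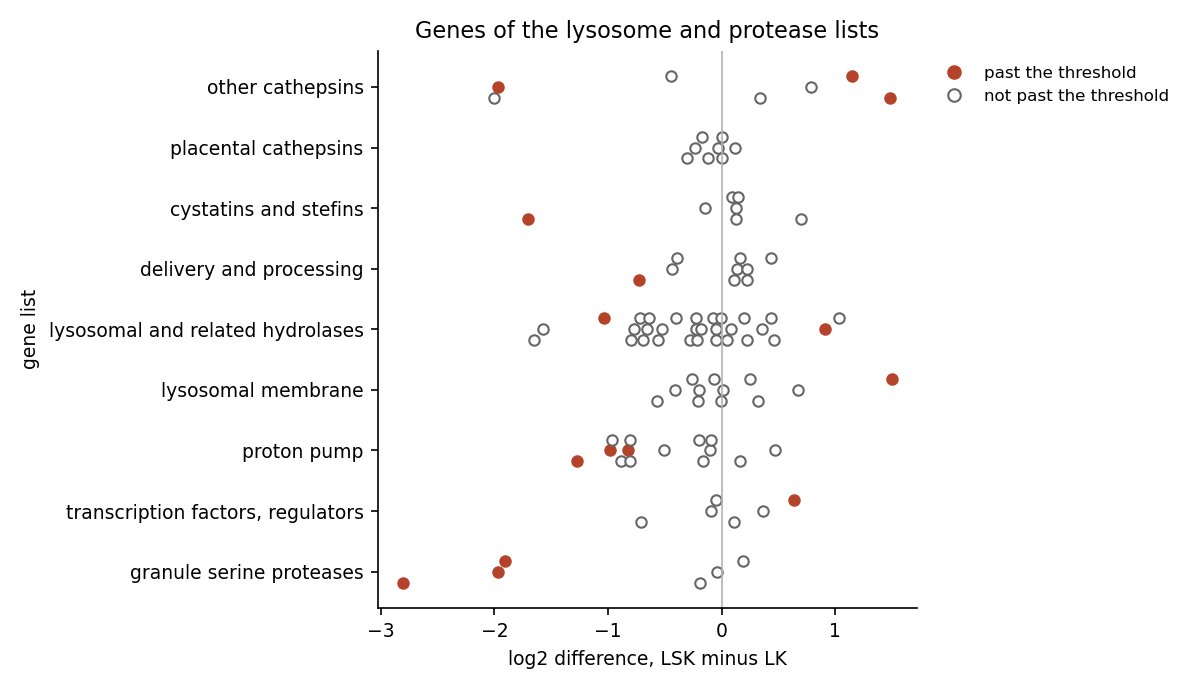
Log2 difference, LSK minus LK (horizontal axis), of each measured gene in 9 lists around the lysosome and its proteases; filled points were past the limma threshold over all genes, open points were not, and vertical offsets within a list carry no meaning. The called proton pump and granule protease genes all lie below 0, and the placental cathepsins lie between -0.30 and 0.12.

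Likeness of pattern was measured among the 4763 genes with a mean log2 of 6 or more, as the root mean square difference of log2 profiles over the 6 arrays, each centred on its own mean. Nearest to Ctla2a were Csgalnact1, an enzyme gene of chondroitin sulfate synthesis (0.165), Tcf7l2, a transcription factor of the Wnt pathway (0.169), and Rsad2, the antiviral protein viperin (0.225). In these genes as in Ctla2a, LK replicate 1 was the highest LK array, with log2 levels of 5.55, 5.99 and 6.01. Their choice by likeness to Ctla2a largely fixes this shared feature. The profile of Ctla2a was itself the second nearest to that of Ctla2b (0.251). Nearest to Ctsh were Irf8, a transcription factor of monocyte and dendritic cell development (0.362), Mgst2 (0.365) and Gca, which encodes the calcium-binding protein grancalcin (0.372). In each of these LSK replicate 3 was the highest LSK array, with log2 levels of 6.50, 6.87 and 6.70. This too follows largely from their choice by likeness to Ctsh.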

How the data were processed

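The authors deposited 1 linear intensity per probe set and array; the submitters' processing notes name RMA, affy and R 2.11.0. Because RMA normalises arrays to each other, a change common to most genes is removed, and differences of dim genes are compressed. RNA was amplified by a linear method, per the labels' protocols. Scan files are not analysed here.

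Of 45101 probe sets, 64 controls were left out, 34945 carried exactly 1 symbol of the platform annotation, 932 several, and 9160 were not listed. Symbols were updated by gene identifier in a RefSeq table of GRCm38.p6 (34741 matched). The array files name no build, and promoters come from RefSeq. The test on log2 intensities was limma's (version 3.58.1, R 4.3.3; two-sided, population as the only term, Benjamini-Hochberg over 18193 genes, threshold 0.05), checked on simulated data. SE and adjusted p are from this fit, SD is over 3 arrays, and a p-value reflects only how far these samples spread, which may be technical.

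Samples of the same number deviated together across genes (r = 0.417, 0.433 and 0.273). Differences within same-numbered arrays are therefore also given, and the replicate number served as a block in an alternative fit. The main fit, with population as its only term, ignores this pairing. The pairing comes from the data, not the labels. No pair of arrays was identical (0 of 15). The members and lists were chosen with earlier results of these data known. The rule names the members and, per list, the 2 genes with the largest called difference in each direction, or the one with the lowest p. Atp6v1c1, Prtn3, Ctss, Ctse, Arsb, Gla, Glb1, Neu1, Cst3, Cstb, Csf1r, Cdh5, Vwf, Atp6v1e1, Atp6v1a, Tfeb, Tfe3 and Mitf were added after their values were seen. Also tried were the block on replicate number, renewed quantile or loess normalisation, a filter on genes with means under a log2 of 4, other probe set rules, other variances, array weights, the 3′ to 5′ covariate and leaving out arrays.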

Additional observations from a re-analysis of the deposited data

How the results depend on the processing

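Ctla2a and Ctla2b kept their calls in 15 of 16 alternatives each, with log2 differences from 3.00 to 3.79 and from 3.23 to 3.81, and lost them with the 3′ to 5′ covariate. That covariate differed between the populations, so its part and that of the population are hard to separate. Ctsl kept its call in 7 of 16. Of the named list genes called without the block, none reversed; the genes called with the block alone were not refitted. With the covariate, 25 of all genes were higher and 0 lower, 0 members were called, 3 stem cell genes were higher, and 0 genes of the other lists were called in either direction. With the replicate block 1278 of all genes were higher and 1339 lower, 1 member, 2 other cathepsins, 4 hydrolases, 5 proton pump genes and 1 macrophage gene were lower; it changed no other list count by over 1.5 times. With array weights 1305 of all genes were higher and 1301 lower, 1 member, 4 hydrolases, 5 proton pump genes and 1 macrophage gene were lower and 2 membrane genes higher. Renewed quantile normalisation gave 839 of all genes lower, 2 other cathepsins and 2 hydrolases lower, and loess 2 other cathepsins lower. Without dim genes 1 other cathepsin was higher and 2 lower, 2 hydrolases, 5 proton pump genes and 1 macrophage gene were lower, and 0 regulators and 0 macrophage genes higher. With the mean of probe sets 0 hydrolases were called either way, 0 delivery genes and 1 proton pump gene were lower and 0 regulators higher; without suffixed probe sets 0 regulators and 0 macrophage genes were higher. With trend and robust variances 2 other cathepsins and 1 macrophage gene were lower. Without both replicate 2 arrays 371 of all genes were higher and 166 lower, 2 members were higher, 0 other cathepsins, cystatins, delivery genes, hydrolases, proton pump genes and granule proteases were lower, 0 hydrolases, membrane genes and regulators were higher, 1 mast cell gene and 3 committed progenitor genes were lower. The value of each setting was not traced to a cause.

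Without 1 array each, 230 to 584 of all genes were higher and 76 to 685 lower, 2 members were higher in each fit (Ctla2a and Ctla2b) and 0 to 1 lower. The list counts were 0 to 2 higher and 0 to 1 lower for other cathepsins, 0 to 1 lower for cystatins and for delivery genes, 0 to 1 in each direction for hydrolases and for macrophage genes, 0 to 1 higher for membrane and for endothelial genes, 0 to 3 lower for the proton pump, 0 higher and 0 to 1 lower for regulators, 0 to 2 lower for granule proteases, 0 to 3 lower for mast cell genes, 4 to 7 higher for stem cell genes and 3 to 7 lower for committed progenitor genes. Genes near a log2 of 3 have too little signal over background for a small difference to be seen.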
